A study of Mus musculus with 2 samples.

Results

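The EGR, NR4A and IER genes are immediate early genes, and 9 of them were followed here: Egr1, Egr2, Egr3, Nr4a1, Nr4a2, Nr4a3, Ier2, Ier3 and Ier5. They were chosen by name and not by a threshold on these peaks, with earlier results of the same data known. They are 9 of 21536 protein-coding genes that could be placed on mm10 with a strand. Chromatin immunoprecipitation with an antibody to the transcription factor MEF2A, followed by sequencing, was done in CH12.LX, an immortalized B cell lymphoma line from a female mouse of strain B10.H-2aH-4bp/Wts. The labels list 1 line, no treatment and 2 biological replicates from separate biosamples of the same donor, so there is 1 group and no second condition. The data are peak lists, which hold neither RNA levels nor read counts: the depth is unknown, and neither the B cell identity of the line nor the activity of any gene could be checked in them.

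Immediate early genes are transcribed within minutes of a stimulus, such as antigen receptor engagement, without new protein synthesis. The EGR proteins are zinc finger transcription factors that bind a GC-rich site. The NR4A proteins are orphan nuclear receptors whose induction reports antigen receptor signalling in lymphocytes, and the IER genes encode small proteins of other kinds. Nr4a1, which encodes Nur77, is a known MEF2 target in T cells: a pair of MEF2 elements in its promoter passes on calcium and calcineurin signals, and Cabin1 and the histone deacetylase HDAC7 hold it silent through MEF2. MEF2 proteins bind an AT-rich element of 10 bases, here called the MEF2 element and searched as an exact match to its looser consensus on both strands.

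A peak was counted for a gene when its summit lay in the gene or within 50 kb of any of its transcription start sites (TSSs). All 9 genes had such a peak in the 31497 peaks of the optimal IDR set (irreproducible discovery rate, a procedure that thresholds peaks by how reproducibly they are ranked between lists, here the replicates and the pooled data), where 68.6% of all protein-coding genes had one. All 9 had a summit within 10 kb of a TSS, against 43.8% of all genes, and 6 had a summit within 1 kb, against 30.9%. Egr1, Egr3 and Nr4a3 were the 3 without a promoter peak by that measure. The 9 genes held 75 peaks, or 69 after overlapping intervals were merged, with a median of 9 peaks a gene against 2 over all genes. The families shared them unequally, with 30 peaks at the EGR genes, 12 at the NR4A genes and 33 at the IER genes.

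**Figure D1:**
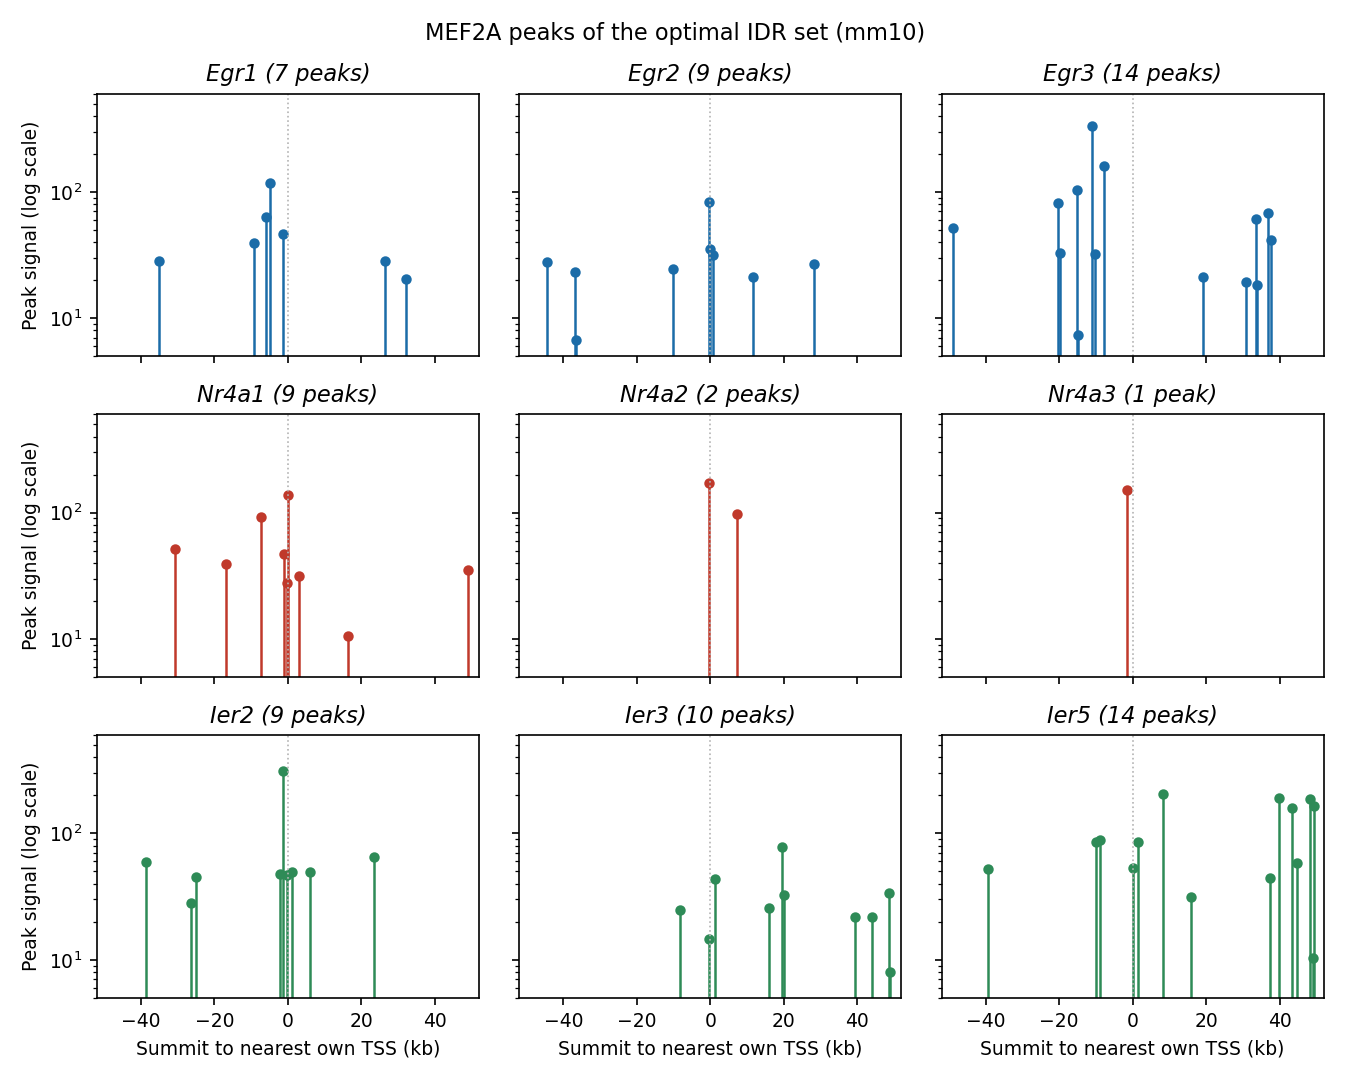
Each panel shows 1 gene, with the distance of each optimal peak's summit from the gene's nearest own TSS in kb (negative values upstream) on the horizontal axis and the authors' peak signal on a log scale on the vertical axis. Egr3 and Ier5 have 14 peaks each, with the strong ones away from the TSS, while Nr4a2 has 2 and Nr4a3 has 1.

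Peak signals are numbers that the authors' peak calling attached to each peak, and they were compared only by order within a list. The strongest peak of each gene was, from high to low, 331 at Egr3, 314 at Ier2, 204 at Ier5, 172 at Nr4a2, 151 at Nr4a3, 138 at Nr4a1, 117 at Egr1, 83.8 at Egr2 and 78.1 at Ier3. No error can be set on these values, because the optimal set gives 1 value a peak. The median over the 9 genes was 151, against 52.5 over the 14774 genes with a peak. All 9 lay above that median, and 5 lay above the 90th percentile of 145. For Ier3 this rests on a peak 204 bp upstream of Mdc1, while the peaks nearest to Ier3 itself had signals of 24.9 and 14.6. Egr3 and Ier2 stand at the top of this order, and Ier3 and Egr2 at the bottom. The mm9 list comes from the same 2 libraries and is no independent measurement. In it the strongest peak ranked 66 at Egr3 and 112 at Ier2 among 16839 peaks.

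**Figure D2:**
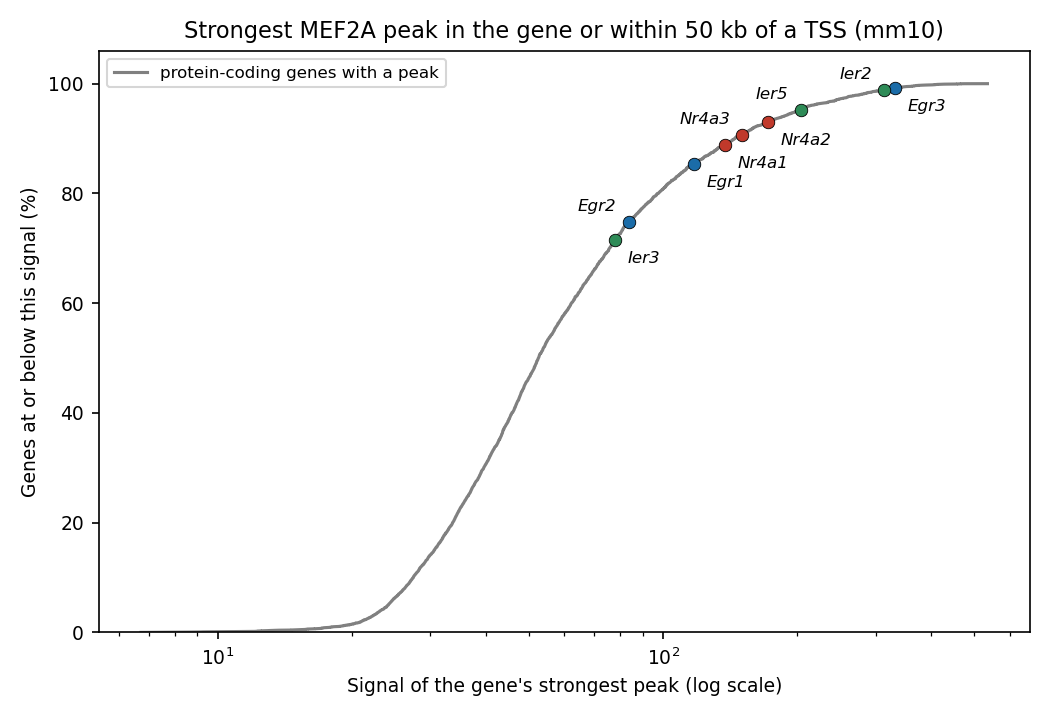
The grey line gives the share of protein-coding genes with a peak, in percent, whose strongest peak is at or below the signal on the horizontal axis (log scale). The coloured points place the 9 genes on it, from Ier3 at 78.1 to Egr3 at 331, all above the median gene at 52.5.

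Nr4a1 spans chr15:101253902-101274795 on the plus strand of mm10, and RefSeq gives it an outer TSS at its first base and an inner TSS 12944 bp further in. Its strongest peak stood at the outer TSS, with the summit 120 bp inside the gene, a signal of 138 and rank 1402. The peak overlapping it ranked 613 in replicate 1, with a signal of 75.1, and 2653 in replicate 2, with a signal of 64.3. It was therefore high in both replicates, though placed several times higher in the first. In the mm9 list the strongest peak near the gene ranked 1435, with its summit 12802 bp before the inner TSS, where the mm10 summit lay at -12824 bp from that TSS. That mm9 window holds an exact MEF2 element 34 bp from the mm9 summit, on chr15:101084505-101084514 of mm9. It lies on the side of the inner TSS, so by distance to that TSS it is farther from the mm10 summit. Other peaks lay 7405 bp upstream of the outer TSS (signal 91.6), 1125 bp upstream of it (47.0) and 3062 bp inside the gene (31.5).

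The pair of MEF2 elements known from T cells lies before the inner TSS. The 250 bases that precede this TSS in the RefSeq mm10 promoter table match mm9 exactly and end at the base before the GENCODE vM1 start, so both annotations use the same start site. The paired elements begin at -299 and -265 bp from that TSS and are 24 bases apart. They are shown because the summit of a weak promoter peak falls between them, on the mm9 sequence chr15:101096897-101097077, plus strand, with both elements in capitals.

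Nr4a1 inner promoter: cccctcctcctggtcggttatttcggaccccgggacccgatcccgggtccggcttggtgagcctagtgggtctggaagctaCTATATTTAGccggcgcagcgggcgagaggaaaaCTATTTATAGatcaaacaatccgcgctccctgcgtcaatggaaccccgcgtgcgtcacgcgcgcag

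The mm10 peak there had its summit 288 bp before the inner TSS, which is 2 bp from the first element and 23 bp from the second by distance to the TSS. That count assumes that mm10 has no insertion or deletion in the bases beyond the matched 250, which were not compared. The peak was weak: its signal was 27.7 and its rank 21602 of 31497. It ranked 17017 in replicate 1, with a signal of 13.8 and a summit 212 bp away, and 22097 in replicate 2, with a signal of 18.7 and a summit 1 bp away. The replicates thus differed on its position, and the conservative IDR set also kept it. The mm9 list had no peak at this promoter. The other 4 peaks of Nr4a1 were nearest to Grasp (2), Atg101 (1) and Smim41 (1), so 5 of its 9 peaks had Nr4a1 as the nearest gene.

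Nr4a2, which encodes Nurr1, spans chr2:57106830-57124003 on the minus strand. It had only 2 peaks, and both had Nr4a2 as the nearest gene. The promoter peak had its summit 202 bp upstream of the TSS, a signal of 172 and rank 871. It ranked 2023 in replicate 1 (signal 42.9) and 560 in replicate 2 (signal 128), so it was far up both lists but higher in the second. The other peak, 7150 bp inside the gene, had a signal of 97.1 and rank 2771, and the order of the replicates was turned there, with ranks of 1473 and 4345. In mm9 the promoter peak ranked 1065 and carried a MEF2 element 16 bp from its summit. The RefSeq mm10 promoter, chr2:57124004-57124253, is printed because it holds that element beside an EGR site and a pair of GC boxes, all in capitals, in the direction of transcription.

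Nr4a2 promoter: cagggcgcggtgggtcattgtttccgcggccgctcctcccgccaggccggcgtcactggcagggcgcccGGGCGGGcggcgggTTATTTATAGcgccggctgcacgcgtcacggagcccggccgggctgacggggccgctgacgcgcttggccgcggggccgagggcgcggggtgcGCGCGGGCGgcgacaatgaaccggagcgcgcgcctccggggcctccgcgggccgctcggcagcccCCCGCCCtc

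The element is the run TTATTTATAG in the first part of the promoter. Among 32817 RefSeq promoters cut to the same 250 bases, 2.92% hold a MEF2 element, and Nr4a2 was the only 1 of the 6 genes found in the table (all but Egr1, Egr3 and Ier2) that did.

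Nr4a3, which encodes NOR-1, spans chr4:48045078-48086447 on the plus strand. Its single peak had the summit 1626 bp upstream of the TSS, a signal of 151 and rank 1152. It ranked 546 in replicate 1 (signal 78.7) and 1786 in replicate 2 (signal 78.2). The mm9 list likewise had 1 peak at the gene, 1697 bp upstream and of rank 1275. No MEF2 element lay within 50 bp of that summit, but the mm9 peak interval, chr4:48056009-48056454, held an element centred at -194 bp from it. The mm10 peak is narrower, at chr4:48043445-48043552, and its sequence was not searched. The elements of the 3 NR4A genes inside mm9 peaks are set side by side below, each with 10 bases on either side and the element in capitals, plus strand of mm9, at chr15:101084495-101084524, chr2:56976562-56976591 and chr4:48056120-48056149.

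Nr4a1 outer region: ccgggcgccgCTATTTTTAGcccattgatg
Nr4a2 promoter peak: gcagccggcgCTATAAATAAcccgccgccc
Nr4a3 upstream peak: cgacgtcccaCTAAAAATAGctgggacccg

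Upstream of the TSSs themselves, a MEF2 element was found within 1 kb of 13.3% of the 45971 protein-coding TSSs of GENCODE vM1. Of the 18 TSSs of the 9 genes, 3 had one, which is near that share for so few TSSs. These were 1 TSS each of Nr4a1, Nr4a2 and Nr4a3. Beside the paired elements, Nr4a1 had one beginning at -898 bp. Nr4a2 had one at -167 bp, which is the element under its promoter peak, and Nr4a3 had one at -797 bp. Among all these elements, only that of Nr4a2 lies inside an mm9 peak.

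Ier2, which encodes a nuclear protein, spans chr8:84661331-84662852 on the minus strand and had 9 peaks. The strongest lay 1190 bp upstream of the TSS, at chr8:84663921-84664174, with a signal of 314 and rank 122. It ranked 143 in replicate 1 (signal 127) and 110 in replicate 2 (signal 190), nearly the same place in both. The promoter peak, 152 bp upstream, had a signal of 46.8. All 9 peaks overlapped peaks among the 31497 strongest of each replicate list. For 3 of them another TSS was nearer, that of Nacc1 (2) or Lyl1 (1). The mm9 window of the strongest peak, chr8:87187888-87187988, plus strand, is shown because it is among the strongest in the genome and has no exact MEF2 element. Its ETS site is in capitals.

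Ier2 strongest peak: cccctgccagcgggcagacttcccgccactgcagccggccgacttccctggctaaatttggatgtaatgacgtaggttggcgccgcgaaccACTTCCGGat

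The best MEF2 match in this window, ctaaatttgg at 5 bp from the summit, has 1 mismatch to the consensus.

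Ier5, whose product acts on the heat shock factor HSF1, spans chr1:155096367-155099636 on the minus strand. It had 14 peaks, and Ier5 was the nearest gene for 13 of them, Mr1 for the other. The strongest lay downstream of the gene, 8212 bp from the TSS, with a signal of 204 and rank 552. It ranked 502 in replicate 1 (signal 81.8) and 671 in replicate 2 (signal 119). A further 7 peaks lay 37 to 49 kb downstream, within 11896 bp of each other, and 4 of these ranked among the first 1100 of the optimal set. Their signals were 191 at 39947 bp, 186 at 48277 bp, 164 at 49250 bp and 160 at 43272 bp. The promoter peak, with its summit 17 bp upstream, was weaker than these at 53.3. All 14 peaks overlapped peaks among the 31497 strongest of both replicate lists. A weak one, with a signal of 10.4 and rank 30444, took the same replicate ranks as its neighbour at 49250 bp.

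A pair of downstream windows is printed, 1 with an exact MEF2 element and 1 without. Both are 101 bases of the plus strand of mm9 around the summit. The first, chr1:156906768-156906868, lies 39948 bp downstream and has its MEF2 element in capitals. The second, chr1:156898439-156898539, lies 48277 bp downstream and has its AP-1 sites in capitals.

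Ier5 with MEF2 element: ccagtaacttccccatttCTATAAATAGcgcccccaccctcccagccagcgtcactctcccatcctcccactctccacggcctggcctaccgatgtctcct
Ier5 with AP-1 sites: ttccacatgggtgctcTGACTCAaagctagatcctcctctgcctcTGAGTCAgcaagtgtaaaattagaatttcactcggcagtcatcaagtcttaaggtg

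These peaks ranked 710 and 684 in the mm9 list. The second window also holds the 8-base core of the MEF2 element, taaaatta, within the run gtaaaattag, which has 1 mismatch to the consensus and is centred 12 bp from the summit. The exact element of the first is centred at -28 bp. A further exact element, ctataaataa at chr1:156901980-156901989 of mm9, is centred 50 bp from the summit of a weaker peak 44831 bp downstream (rank 9727), so it reaches beyond the 50 bp window and was not counted there. An AP-1 site was found in 4 of the 12 mm9 windows of Ier5 and in 1 window of Egr3. The other 7 genes had none.

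Ier3, which is induced by NF-kB and bears on cell survival, spans chr17:35821713-35822911 on the plus strand. It had 10 peaks, but Ier3 was the nearest gene for only 2 of them. Its strongest peak, with a signal of 78.1 and rank 4055, had the summit 204 bp upstream of Mdc1 and 19578 bp from the TSS of Ier3. The replicates placed it at 10316 and 3161. The peak at the Ier3 promoter itself, 226 bp upstream, was among the weakest of the set at 14.6 and rank 29383, and it lay in neither the 31497 strongest peaks of replicate 1 nor those of replicate 2. Of the remaining peaks, 3 were nearest to Ppp1r18, a second to Mdc1, and 1 each to Flot1, Tubb5 and Nrm. Ier3 thus lies in a gene-dense stretch in which most peaks stand closer to other genes.

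Egr3, which restrains lymphocyte activation together with Egr2, spans chr14:70077317-70082613 on the plus strand and had 14 peaks. The strongest peak of all 9 genes lay 11046 bp upstream of its TSS, at chr14:70066078-70066421, with a signal of 331 and rank 89. It ranked 109 in replicate 1 (signal 133) and 78 in replicate 2 (signal 198). A second strong peak 7805 bp upstream had a signal of 161, with replicate ranks of 1025 and 1055, and another 15128 bp upstream had 103. No peak stood within 1 kb of the Egr3 TSS. A weak peak 10169 bp upstream was placed very differently by the replicates, at 5432 and 135645. Of the 14 peaks, 8 were upstream, of which 3 were inside Pebp4, and the 6 downstream ones were nearest to Bin3. The strongest mm9 window, chr14:70466016-70466116, plus strand, is shown for the same reason as that of Ier2, again with the ETS site in capitals.

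Egr3 strongest peak: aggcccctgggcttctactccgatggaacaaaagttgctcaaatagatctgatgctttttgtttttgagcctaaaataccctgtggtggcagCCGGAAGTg

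The best MEF2 match here, ttgtttttga, has 2 mismatches. The wider peak interval holds an exact SRF CArG box, ccaaaattgg, centred at -142 bp from the summit. The ETS site CCGGAAGT was found in 1.61% of all mm9 windows, and the strongest windows of Egr3 and Ier2 were the 2 of 51 that held it. It is centred 46 bp from the summit at Egr3 and 44 bp at Ier2, near the edge of the window. A count of 2 is too small to set against the share of all windows.

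Egr2 spans chr10:67534469-67542188 on the plus strand, with 6 TSSs in the annotation used. Of its 9 peaks, 3 had the summit within 1 kb of a TSS, the most of any of the 9 genes. The strongest, 341 bp upstream of the TSS at 67537566, had a signal of 83.8 and rank 3593, and the replicates placed it at 4082 and 3639. The next, 102 bp upstream of the TSS at 67537869, had a signal of 35.0. The last, 667 bp after another TSS, had 31.4 and ranked 161990 in replicate 1 against 10319 in replicate 2. The replicates thus matched on the strongest peak and not on the weakest of the 3. Both CArG boxes of the Egr2 promoters, the sites of the serum response factor SRF, are shown with 10 bases on either side, plus strand of mm10, at chr10:67537484-67537513 and chr10:67537787-67537816.

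Egr2 first CArG box: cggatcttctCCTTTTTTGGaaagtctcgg
Egr2 second CArG box: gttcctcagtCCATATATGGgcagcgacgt

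The second lies inside the peak with a signal of 35.0, with its nearest base 30 bp from the summit. The first lies in no optimal peak, and its nearest base is 264 bp from the closest summit, that of the same peak. A CArG box was present in 1.47% of all promoters in the table, and Egr2 was the only 1 of the 6 matched genes with it. Egr2 has several promoter entries in the table and was counted over all of them, while the share is over single promoters. Away from its promoters, Egr2 had a pair of overlapping peaks 36724 and 36469 bp upstream, with signals of 23.0 and 6.74, that overlapped a peak in replicate 2 only. Ado was the nearest gene for 2 of the 9 peaks. In mm9 the gene had 2 peaks, the stronger of rank 3774 with a MEF2 match of 1 mismatch.

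The overlap with the replicate lists was as wide as in the whole set. Each replicate list holds 300000 intervals of peaks and background, so overlap alone says little: 73 of the 75 peaks overlapped an interval in both, against 97.6% of all optimal peaks. When only the 31497 strongest intervals of each list were used, 55 of the 75 peaks (73.3%) overlapped both, against 64.7% of all. By family this was 18 of 30 at the EGR genes, 9 of 12 at the NR4A genes and 28 of 33 at the IER genes. Spearman's rho between the replicate ranks was 0.73 over the 73 peaks and 0.60 over all optimal peaks in both lists. These are descriptions across peaks, which share libraries and neighbourhoods. Overlapping optimal peaks can also take the rank of the same replicate interval. At Egr3, peaks with signals of 103 and 7.38 both took ranks 2645 and 2463. Such an interval counts more than once in the 55 and in rho. The conservative IDR set, which holds 28217 peaks, overlapped 58 of the 75 (77.3%). The same share over all optimal peaks was not taken, so this count has no baseline.

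**Figure D3:**
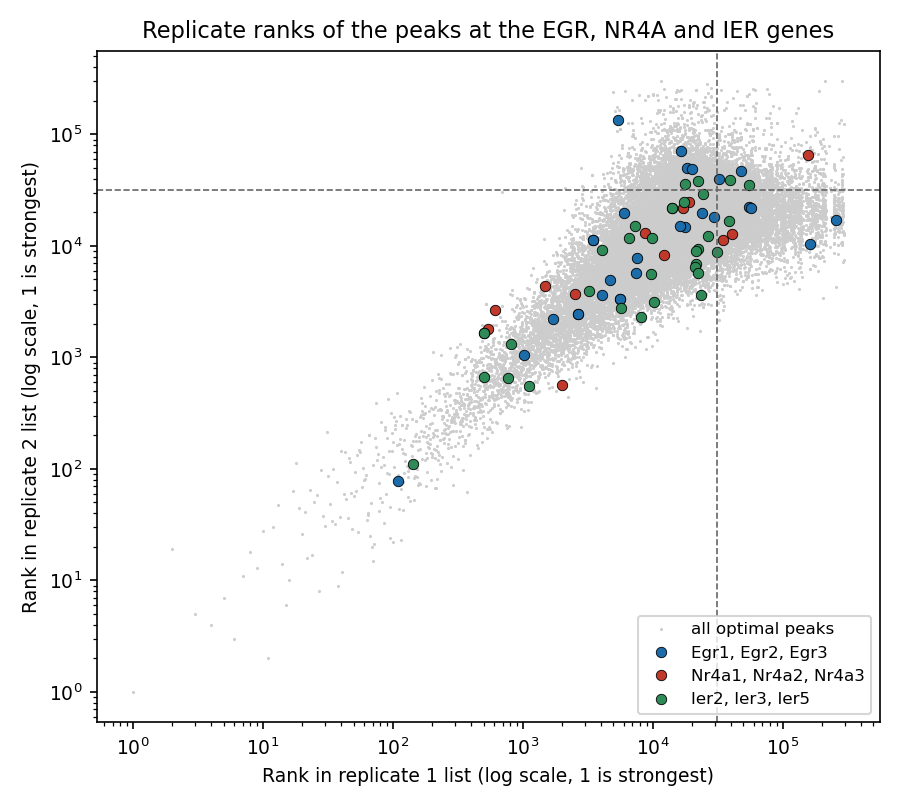
Each point is an optimal peak, with its rank in the replicate 1 list on the horizontal axis and in the replicate 2 list on the vertical axis, both on log scales with 1 as the strongest, and the dashed lines mark rank 31497. The 2 coloured points nearest to the lower left are the strongest peaks of Egr3 (109 and 78) and Ier2 (143 and 110), and the spread between the replicates widens towards weak peaks.

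Egr1, the founding member of its family and a target of SRF, spans bases 34861207 to 34864956 of chromosome 18 on the plus strand of mm10. It had 7 peaks, of which 5 were upstream, and no summit lay within 1 kb of its TSS. The strongest stood 4894 bp upstream, with a signal of 117 and rank 1911. It ranked 1697 in replicate 1 (signal 47.1) and 2212 in replicate 2 (signal 70.3), so the replicates placed it alike. It was flanked by peaks 5838 bp (63.7), 1275 bp (46.8) and 9248 bp (39.4) upstream. The other 3 peaks were over 10 kb away and weaker, and the one farthest upstream was nearest to Reep2. In mm9 the gene had 5 peaks, and the strongest ranked 2119. None of the 5 had an exact MEF2 element within 50 bp of the summit, and 1 had a match with 1 mismatch.

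Over the 9 genes, the signal of a peak differed with its distance from the gene. The 9 peaks within 1 kb of a TSS had a median signal of 46.8, the 20 between 1 and 10 kb had 74.4, and the 46 farther out had 32.9, by the distance to the gene's own TSS. Over all optimal peaks, by the distance to the nearest TSS of any gene, the medians were 31.6, 34.6 and 37.1 in the same order, so the median was highest in the farthest class there. The strongest peak stood within 1 kb of a TSS at Egr2, Nr4a1 and Nr4a2 and farther out at the other 6 genes. Of the 75 peaks, 44 (58.7%) were above the median of the set and 15 (20.0%) were among its strongest 10%. For 25 peaks another TSS was nearer, spread over 14 other genes, and 11 of the 25 lay within 1 kb of that TSS. Assignment by distance does not say which gene a peak acts on.

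In the mm9 list all 9 genes again had a peak in the gene or within 50 kb, against 55.2% of the 22373 protein-coding genes of GENCODE vM1. The number of peaks was 51, with a median of 5 a gene against 1 over all genes. Only Egr2, Nr4a2 and Ier5 had a summit within 1 kb of a TSS there, against 16.5% of all genes. GENCODE vM1 lists only the inner TSS of Nr4a1, so the strong peak at -12802 bp, which by its distance from the inner TSS lies where RefSeq has the outer TSS, is not counted within 1 kb on mm9.

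A MEF2 element lay within 50 bp of the summit in 3 of the 51 mm9 peaks, 1 each at Nr4a1, Nr4a2 and Ier5. That is 5.88% (95% Wilson interval 2.02 to 15.9, for counting error over peaks only), beside 7.13% of all 16839 mm9 peaks and 2.25% of windows on a regular grid of 20 kb over the genome. The share at the 9 genes is near that of all peaks. With 1 mismatch allowed, a form added after the exact matches had been seen, 11 peaks (21.6%) had a match. All peaks had one in 23.6% and the grid in 23.1%, so this form does not separate peaks from the grid. The strongest mm9 peak had an exact element at 2 genes, Nr4a1 and Nr4a2, and a match with at most 1 mismatch at 5, which adds Egr2, Ier2 and Ier5. The same shares over the strongest peaks of all genes were not taken, so these counts have no baseline.

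**Figure D4:**
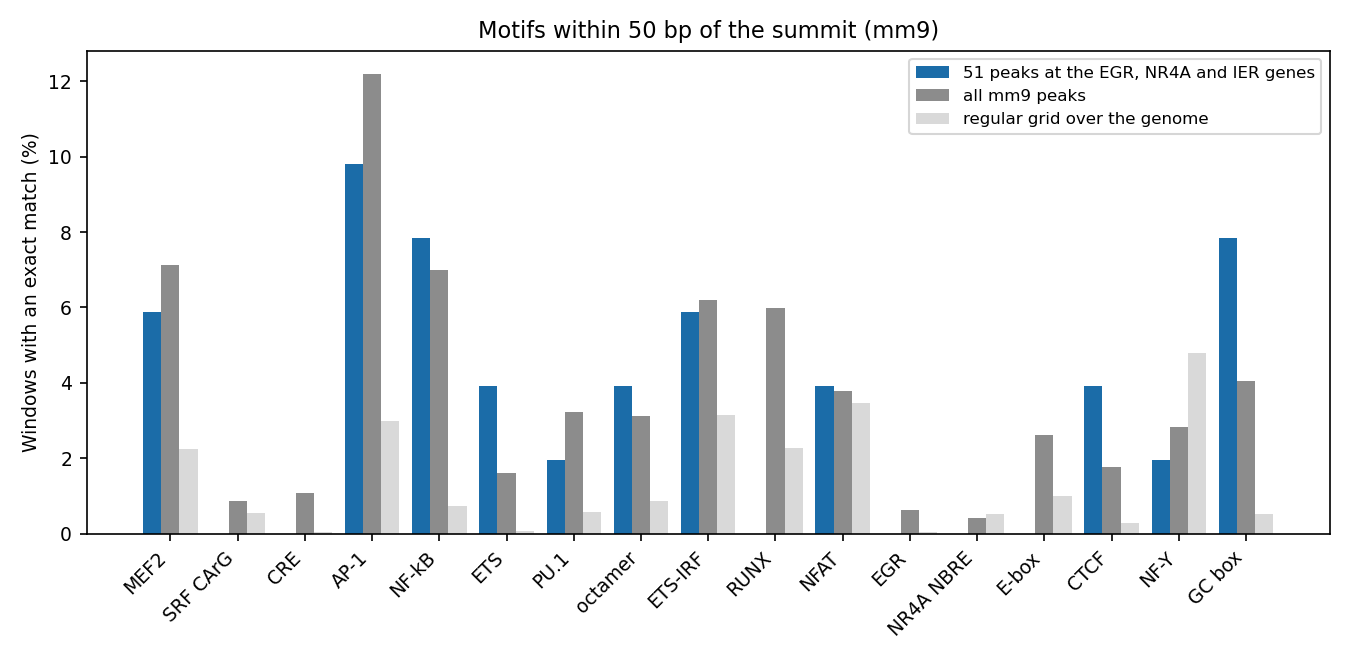
Bars give the percentage of 101 bp windows that hold an exact match to each motif on either strand, for the 51 mm9 peaks at the 9 genes, for all mm9 peaks and for a regular grid over the genome. MEF2 elements are in 5.88% of the windows at the 9 genes and in 7.13% of all peaks, and 1 peak more or less at the 9 genes moves a bar by 1.96 percentage points.

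The other motifs were as thinly spread. AP-1 (TGANTCA) was in 5 of the 51 windows against 12.2% of all peaks. The NF-kB site was in 4 windows, 1 each at Egr2, Egr3, Ier2 and Ier5, against 7.0% of all, and the GC box (GGGCGGG) was in 4 against 4.04%. The composite site of ETS and IRF factors (GGAANNGAA) was in 3 against 6.21% of all. The octamer (ATGCAAAT), the NFAT site (TGGAAAA) and the CTCF site were in 2 each, against 3.12%, 3.79% and 1.77% of all. PU.1 (GAGGAAGT) and NF-Y (CCAATNA) were in 1 each, against 3.24% and 2.84%. No window held the CArG box, CRE (TGACGTCA), RUNX (TGTGGTT), EGR (GCGNGGGCG), NR4A monomer (AAAGGTCA) or E-box (CACGTG) motif. A count of 0 of 51 allows a share of up to about 5.88%, a rough limit of 3 in 51 that takes the peaks as independent. Over all peaks these 6 absent motifs were in 0.879%, 1.09%, 5.99%, 0.635%, 0.41% and 2.63% of windows, in that order. The RUNX share of 5.99% is too near the rough limit to be told from it. The EGR site and the GC box can share bases, as can the ETS, PU.1 and composite sites, so their counts are not independent. In the 250-base mm10 promoters of the 6 matched genes, the EGR site was found at Nr4a1 and Nr4a2 (4.7% of all promoters), the NF-kB site at Ier3 (3.9%), and NF-Y at Ier3 and Ier5 (14.2%). The GC box was found at 5 of the 6, all but Ier3, against 23.4% of all promoters. These counts are of genes with a match in any of their promoter entries, while the shares are over single promoters.

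A list of 31 other genes was drawn up, chiefly of immediate early genes but also with others such as the EGR corepressors Nab1 and Nab2. Of these 31, 30 had an optimal peak in the gene or within 50 kb, and Egr4, the remaining EGR gene, had none. Within 10 kb of a TSS it was 22 of 31, and within 1 kb 17 of 31, against the 43.8% and 30.9% of all genes. Their median was 6 peaks a gene and a strongest signal of 91.2. The 17 genes that act upstream, among them the kinase, phosphatase and corepressor genes that converge on MEF2 and SRF, all had a peak, 16 of them within 10 kb, with a median of 9 peaks and a strongest signal of 119. Over both lists the strongest peaks were those of Mef2a, the gene of the precipitated factor itself (378, rank 32), Hdac7 (344, rank 71), the AP-1 gene Fosb (324, rank 100) and the AP-1 gene Jun (308, rank 135). Egr3 and Ier2 fall within this range. Of the partners named above for the paired promoter elements, Cabin1 had 3 peaks with a strongest signal of 78.9, and Srf, which acts on the CArG box, had 1 peak with a signal of 51.4.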

How the data were processed

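MEF2A ChIP-seq of CH12.LX was deposited as peak lists; 5 were used, 4 on mm10 (optimal and conservative IDR sets and 1 list of peaks and background per replicate) and 1 on mm9. Ranks were taken within each list from the signal column that the authors deposited. Per the texts deposited with the files, the IDR sets were made from the replicate lists and a pooled list. Depth is unknown, and the aligner and peak caller were not given in the sources used here.

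Python 3.11.15, numpy 2.4.6, pandas 2.3.3 and matplotlib 3.10.9 were used. Coordinates are 1-based. TSSs on mm10 came from the RefSeq promoter and gene tables of GRCm38.p6, with strand from GENCODE vM1 by symbol for 4044 genes (21536 of 21900 genes used, 98.3%). On mm9, GENCODE vM1 and NCBIM37 were used, and no coordinates were converted. Overlap means 1 bp or more. Motif matches are exact, on both strands, in 101 bp windows, and the search found all sites planted in simulated sequence. Planned motif work on mm9 was extended to the RefSeq mm10 promoters, where 6 of the 9 genes matched.

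The genes and lists were chosen with earlier results of these data known. Named are the 9 genes, with the strongest peak, promoter peak and every mm9 peak with a MEF2 element of each, the neighbours whose TSS is nearer, and, of the other genes, the 4 with the strongest peak and those without one. The plan took these 4 from the list of 31 other genes alone. That would have given Klf6 and Dusp1 in place of Mef2a and Hdac7, which are in the upstream list. Cabin1 and Srf were added after their values were seen. With 1 group of 2 replicates, no test across samples was possible.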

Additional observations from a re-analysis of the deposited data

How the results depend on the processing

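All 9 genes kept a peak in the conservative set, the stronger part of the optimal set (signal above its median), the mm9 list, each replicate alone, the 10 kb window and by nearest TSS, and 6 did within 1 kb. Over all protein-coding genes the share was 55.2% in the mm9 list, 43.8% within 10 kb and 30.9% within 1 kb. It was not taken for the other settings, so the count of 9 there has no baseline. The 75 peaks at the genes became 44 in the stronger part of the optimal set, 29 within 10 kb and 9 within 1 kb. With 1 replicate left out and the strongest 31497 peaks of the other used, they numbered 75 to 77. The 51 mm9 peaks became 20 within 10 kb and 32 in the stronger part of the mm9 list. The 3 mm9 peaks with a MEF2 element became 5 with the whole interval searched, 5 with the 8-base core and 11 with at most 1 mismatch, the last chosen after seeing the data. Over all mm9 peaks these settings gave 10.3%, 11.2% and 23.6% in the same order, so the counts of 5 are no result about the 9 genes. These alternatives widen or narrow what is counted by construction. Between replicates 1 and 2, the best rank of a gene's peaks moved by over 1.5 times at Nr4a1 (613 and 2653), Nr4a2 (1473 and 560), Nr4a3 (546 and 1786) and Ier3 (10316 and 3161). The ranks at Nr4a2 are of different peaks, the one inside the gene in replicate 1 and the promoter peak in replicate 2. No paired analysis was possible because there is 1 group and no test. Weak peaks such as those at the inner promoter of Nr4a1 and at the promoter of Ier3 rest on lists of unknown depth.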
